A study of Mus musculus with 48 samples.

Results

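The response of unpolarized wild-type bone marrow-derived macrophages (M0 macrophages) to the compound AP-3-84 was measured in 6 RNA-seq libraries of the 48 in the series, 3 from treated and 3 from vehicle cells. The libraries were chosen by their labels alone, as the wild-type M0 samples, and every gene with enough reads entered the test. The whole series covers peritoneal macrophages elicited with thioglycollate, macrophages from ascites of mice bearing ID8 ovarian tumor cells, and wild-type and p53 knockout bone marrow macrophages in the M0, M1 and M2 states, each with vehicle and with AP-3-84, in 16 groups of 3. AP-3-84 is known here only by its code name, so nothing is said of its structure. The wild-type M0 cells came from the C57BL/6 strain and were grown from hematopoietic stem cells of the bone marrow for 6 days in 10 ng/mL M-CSF, the growth factor that drives macrophage differentiation. They then received 10 µM AP-3-84, or the same amount of its solvent DMSO, for 4 h. Both groups therefore share the M-CSF culture and the solvent and carry no engineered allele. The p53 knockout M0 groups, used below for comparison, had the same culture, dose and time, and the M1 and M2 groups had a further 24 h with LPS and IFN-γ or with IL-4 and IL-13. The labels do not say whether the 3 libraries of a group came from separate animals or cultures, so the p-values measure the spread between these libraries, which may be technical.

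Macrophages meet reactive compounds with a defense led by the transcription factor NRF2. NRF2 is held down by KEAP1 until cysteines on KEAP1 are modified, and it then drives genes for cystine import, glutathione synthesis, thioredoxin recycling and quinone reduction. Damage to protein folding is answered by a separate program, in which HSF1 drives the heat shock proteins, and an amino acid or translation block is answered by ATF4 in the integrated stress response.

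The 6 libraries held between 3553932 and 4277426 counts and between 14024 and 14337 detected genes. Levels below are CPM, counts scaled to the library size. Macrophage identity genes made up 37335 to 47482 CPM in the vehicle libraries and 46309 to 50650 CPM in the treated ones, with the lysozyme gene Lyz2 the most abundant. Markers of dendritic cells, mast cells and other granulocytes, B cells, and T and NK cells each summed to at most 13.8 CPM in any library, and Cd3e, Flt3 and Ms4a2 were at 0 in all 6. Erythroid and megakaryocyte markers summed to 1488 to 1668 CPM with vehicle and 2058 to 2306 CPM with AP-3-84, without overlap; nearly all of it was the platelet factor gene Pf4, and Hbb-bs, Hba-a2 and Klf1 were at 0 in all 6. The part of Pf4 in any result was not tested. Markers of neutrophils and their precursors summed to 289 to 516 CPM with vehicle and 300 to 384 CPM with AP-3-84. The 8 stromal markers summed to 33.2 to 38.8 CPM with vehicle and to 104, 38.8 and 47.7 CPM in treated replicates 1, 2 and 3, and their part in any result was not tested. The replicates of a group were not alike: on the principal component that held 41.1% of the variance, the vehicle libraries lay at -47.5, -16.1 and 0.28 and the treated ones at 41.5, 25.8 and -3.98, so treated replicate 3 lay among the vehicle libraries. Vehicle replicate 1 and treated replicate 1 stood at the opposite ends, and the counts of called genes below are also given without single libraries.

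With AP-3-84 a small set of genes rose, among them the chaperone gene Hspa1a, the antioxidant genes Gclc and Srxn1 and the NAD salvage gene Nampt. Of 11779 genes tested, 17 were called and all 17 were higher with AP-3-84 (0.144% of genes tested; edgeR's quasi-likelihood test across 36 bone marrow macrophage libraries, Benjamini-Hochberg adjusted p below 0.05). No gene was called lower by this test, while 597 genes were higher and 510 lower at an unadjusted p below 0.05, and DESeq2 called 37 higher and 13 lower. A fit of the 6 libraries alone, where the estimated variation between replicates was smaller (coefficient 0.180 against 0.225), called 68 of 10236 genes (0.664%), 48 higher and 20 lower, among them 15 of the 17. Of the 68, 8 are near-identical copies of Rnu3b1 to Rnu3b4, with 4 rows up and 4 down, between which reads cannot be assigned with certainty. The median log2 fold change over all tested genes was -0.01. The count of 17 rested on single libraries: it was 0 without vehicle replicate 1, 6 without vehicle replicate 2, 4 without vehicle replicate 3, 1 without treated replicate 1 and 3 without treated replicate 2, and it was 17 without treated replicate 3, 14 of them shared. The fit of the 6 libraries alone gave 84, 19 and 86 calls without vehicle replicates 1, 2 and 3, and 23, 17 and 176 without treated replicates 1, 2 and 3.

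**Figure D1:**
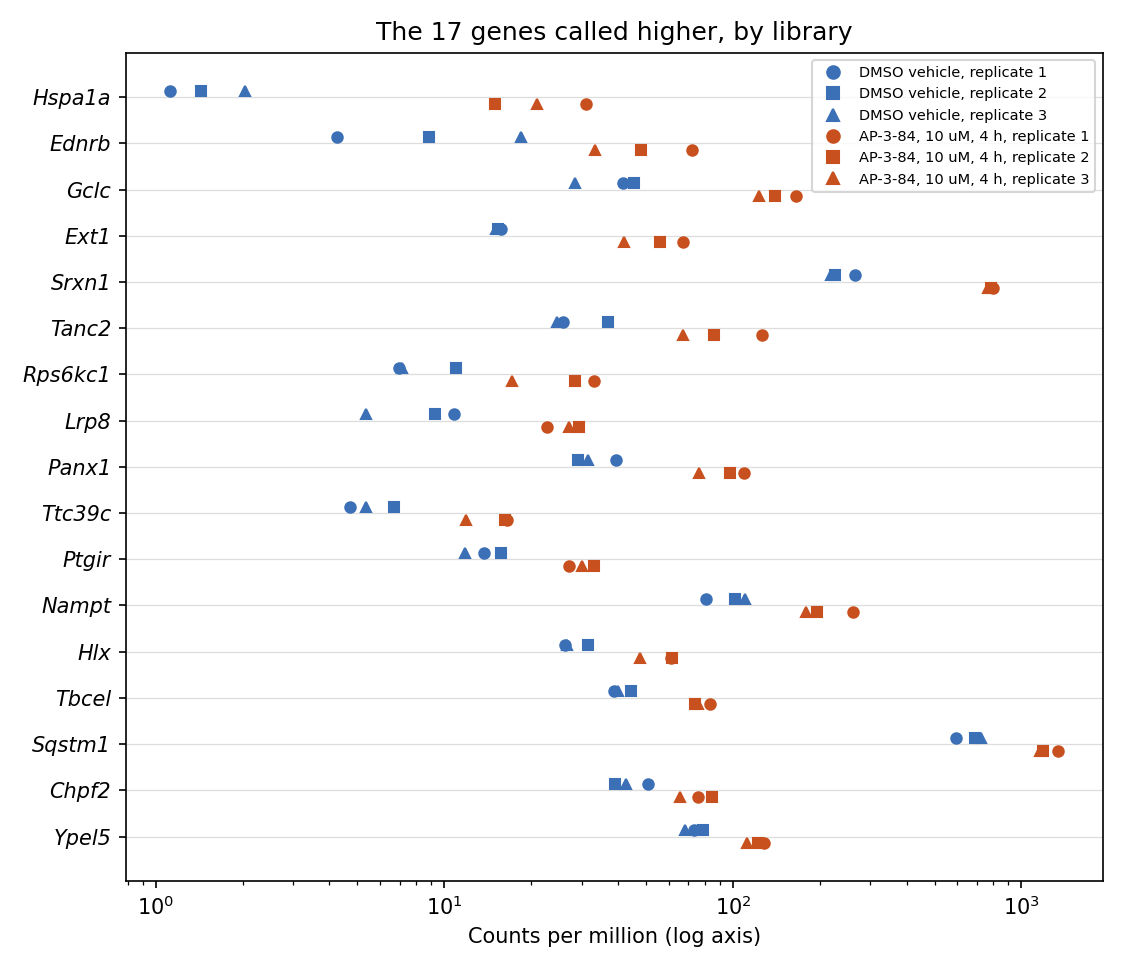
Level in CPM (log axis) of the 17 genes called higher, in the 3 vehicle libraries (blue) and the 3 AP-3-84 libraries (orange), with one symbol for each replicate. In each of the 17 genes the 3 treated libraries lie above the 3 vehicle libraries, and treated replicate 3 is the lowest treated library in 13 of them. The 17 were picked by a test that used these libraries, and 9.08% of all genes tested are separated in this way.

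The largest rise was that of Hspa1a, which encodes an inducible HSP70 chaperone. Hspa1a stood at 1.12, 1.43 and 2.04 CPM in the vehicle libraries and at 31.0, 14.9 and 20.96 CPM in the treated ones. Those levels rest on 5, 6 and 8 counts with vehicle and on 124, 57 and 83 with AP-3-84. The groups did not overlap, and the fitted log2 fold change was 3.85 (SE 0.548, adjusted p = 0.00115). Its neighbor Hspa1b, which encodes nearly the same protein, had 1.12, 2.39 and 1.79 CPM with vehicle and 14.5, 7.08 and 8.59 CPM with AP-3-84. Its log2 fold change of 2.50 missed the threshold (adjusted p = 0.0806), although it was called in the fit of the 6 libraries alone. Reads from Hspa1a and Hspa1b can be hard to tell apart, so how the increase divides between them is uncertain.

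The heat shock list held 24 tested genes, of which 1 was called higher and none lower, against 0.144% of all genes called. Its median log2 fold change was 0.07. Dnajb1, the HSP40 partner of HSP70, gave 38.8, 33.0 and 41.1 CPM with vehicle and 44.0, 37.0 and 42.9 CPM with AP-3-84, and its groups overlapped. The mitochondrial chaperonin gene Hspe1 had a log2 fold change of -0.51 (adjusted p = 0.402). In 4 of the 24 genes all treated libraries lay above all vehicle libraries and in 2 below, against 9.08% and 7.62% of all genes. Hspa1a and Hspa1b had the largest log2 fold changes of the list.

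The promoters of the HSP70 pair are shown because Hspa1a had the largest log2 fold change among the called genes. RefSeq promoter windows (GRCm38.p6, 250 bases before to 50 after the start) were found for 14 of the 17 called genes, with Ext1, Gclc and Ttc39c not matched. The following motifs were searched on either strand, with overlaps allowed: GAANNTTC for the heat shock element, TGACNNNGC for the antioxidant response element and TGATGNAA for the element bound by C/EBP-ATF dimers. The stretches below run from 150 to 51 bases before the start and lie at chr17:34972207-34972306 and chr17:34959289-34959388, both on the minus strand, with the heat shock element in capitals.
Hspa1a: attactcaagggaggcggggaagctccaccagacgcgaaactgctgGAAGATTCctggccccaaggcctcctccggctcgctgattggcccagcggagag
Hspa1b: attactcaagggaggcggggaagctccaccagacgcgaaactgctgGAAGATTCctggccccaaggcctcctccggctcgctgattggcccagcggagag
The stretches were identical over all 100 bases, and in each the match began 104 bases before the start. Counted by gene, the heat shock motif was in 7.01% of tested genes with a window and in 2 of the 14 matched called genes, Hspa1a and Lrp8, of which Lrp8 has 3 windows. The match is a description of the letters and says nothing of binding.

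In the glutathione pathway the gene for the committed enzyme rose. Gclc encodes the catalytic subunit of glutamate-cysteine ligase, the rate-limiting enzyme of glutathione synthesis. Its level was 41.7, 45.4 and 28.4 CPM with vehicle and 165, 140.5 and 123 CPM with AP-3-84. The lowest treated library was above the highest vehicle library by a wide margin, and the log2 fold change was 1.89 (SE 0.318, adjusted p = 0.00642). Slc7a11, the cystine importer that supplies the cysteine for glutathione, stood at 39.7, 53.8 and 49.3 CPM with vehicle and 192, 174 and 200.3 CPM with AP-3-84. The groups were far apart, with a log2 fold change of 1.99, but in the fit across 36 libraries the adjusted p was 0.0806. The fit of the 6 libraries alone called Slc7a11 (adjusted p = 2.46e-05), within a range of 2.61e-19 to 0.426 over the 14 alternatives.

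Of the 10 tested genes of glutathione synthesis and cystine uptake, 1 was called higher and none lower, against 0.144% of all genes called. The fit of the 6 libraries alone called 4, namely Gclc, Slc7a11, the regulatory subunit gene Gclm and the glutathione synthetase gene Gss, with none lower. That fit called 0.664% of all its genes. Gclm gave 349, 342 and 361 CPM with vehicle and 811, 786 and 539 CPM with AP-3-84 (log2 fold change 1.02). Gss gave 14.1, 9.56 and 8.69 CPM against 28.3, 23.9 and 31.6 CPM (log2 fold change 1.36, adjusted p = 0.0765). These 4 genes were the members whose treated libraries all lay above all vehicle libraries, and for no member did they all lie below. Over all genes tested these shares were 9.08% and 7.62%. The other 6 included the glutathione peroxidases and glutathione reductase, and the list median was -0.14, beside -0.01 for all genes.

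Stretches of the Slc7a11, Gclm and Ptgir promoters are shown as examples. These genes carry a searched motif upstream of the start and were higher with AP-3-84 in each treated library. Other genes met the same terms and are not shown, among them Lrp8, Tbcel, Txnrd1, Cbr3 and Fosl2. The stretches are chr3:50443624-50443723 (minus strand, with the C/EBP-ATF motif in capitals), chr3:122245377-122245476 (plus strand, antioxidant response element in capitals) and chr7:16906240-16906339 (plus strand, antioxidant response element in capitals).
Slc7a11: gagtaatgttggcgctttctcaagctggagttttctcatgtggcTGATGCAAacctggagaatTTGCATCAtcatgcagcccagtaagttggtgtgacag
Gclm: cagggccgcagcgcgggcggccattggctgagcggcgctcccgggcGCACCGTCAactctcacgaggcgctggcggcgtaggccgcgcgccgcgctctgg
Ptgir: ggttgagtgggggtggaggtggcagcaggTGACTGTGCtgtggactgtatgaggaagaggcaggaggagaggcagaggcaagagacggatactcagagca
The Slc7a11 stretch holds the C/EBP-ATF motif in both orientations. Counted by gene, this motif was in 2.8% of tested genes with a window, in 0 of the 14 matched called genes and in 2 of the 39 matched genes higher in the 6-library fit. The antioxidant response element was in windows of 4 of the 14 matched called genes, in 8 of those 39 (20.5%) and in 17.2% of tested genes with a window. In Gclm it reads on the opposite strand. These are matches of letters only.

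The thioredoxin system was represented among the called genes by Srxn1, which encodes sulfiredoxin, the enzyme that restores overoxidized peroxiredoxins. Srxn1 was at 265, 226 and 219 CPM with vehicle and at 795, 787 and 764 CPM with AP-3-84. Replicates within each group were close, and the log2 fold change was 1.72 (SE 0.303, adjusted p = 0.0104). Prdx6, a peroxiredoxin that acts on phospholipid peroxides, stood at 291, 198 and 187 CPM against 546, 426 and 431 CPM. The cytosolic thioredoxin reductase gene Txnrd1 stood at 227, 230 and 243 CPM against 467, 383 and 333 CPM. For Prdx6 and Txnrd1 the groups did not overlap, but the log2 fold changes of 1.05 and 0.76 were called in the fit of the 6 libraries but not across 36 (adjusted p = 0.202 and 0.349). Of the 16 tested genes of this list, 1 was called higher and none lower, against 0.144% of all genes called. The list median was 0.04. In 4 of the 16 all treated libraries lay above all vehicle libraries and in 1 below, against 9.08% and 7.62% of all genes.

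Among 25 tested genes for NRF2-driven detoxification and NADPH supply, of 30 listed, 1 was called higher, Sqstm1, and none lower. Over all genes tested 0.144% were called. Sqstm1 encodes the autophagy receptor p62, which also binds KEAP1. Its levels were 593, 689 and 724 CPM with vehicle and 1341, 1186 and 1158 CPM with AP-3-84 (log2 fold change 0.88, SE 0.190, adjusted p = 0.0420). In 14 of the 25 genes all treated libraries lay above all vehicle libraries, and in none did they all lie below. Over all genes tested these shares were 9.08% and 7.62%. The list median was 0.47 and lay between 0.43 and 0.52 over the 14 alternatives. Its summed level was 3952 to 4149 CPM with vehicle and 5617 to 6423 CPM with AP-3-84. The members did not include any with a log2 fold change below -0.13.

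Reductases and stress-induced genes of that list behaved as follows. Cbr3, a carbonyl reductase, gave 46.0, 34.2 and 29.1 CPM with vehicle and 83.5, 78.9 and 80.8 CPM with AP-3-84 (log2 fold change 1.15, adjusted p = 0.0765). Nqo1, the quinone reductase used as a standard NRF2 reporter, gave 18.2, 11.2 and 12.3 CPM against 34.0, 27.5 and 27.5 CPM (log2 fold change 1.09, adjusted p = 0.431). Both were called in the fit of the 6 libraries. Osgin1, an oxidative stress-induced growth inhibitor, gave 10.1, 8.60 and 14.6 CPM against 43.3, 25.7 and 21.2 CPM (adjusted p = 0.0928). Hmox1, the heme oxygenase gene, overlapped between groups, with 329, 185 and 165 CPM against 306, 430 and 403 CPM. Vehicle replicate 1 was the high vehicle library for Hmox1. The iron exporter gene Slc40a1, from a separate heme and iron list, stood at 45.5, 29.6 and 39.6 CPM against 188, 123 and 90.7 CPM. Its log2 fold change of 1.81 was called in the fit of the 6 libraries but not across 36 (adjusted p = 0.398). The heme and iron list had 14 tested genes, none called across 36 libraries, and a median of 0.08. In 4 of the 14 all treated libraries lay above all vehicle libraries and in 4 below, against 9.08% and 7.62% of all genes.

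**Figure D2:**
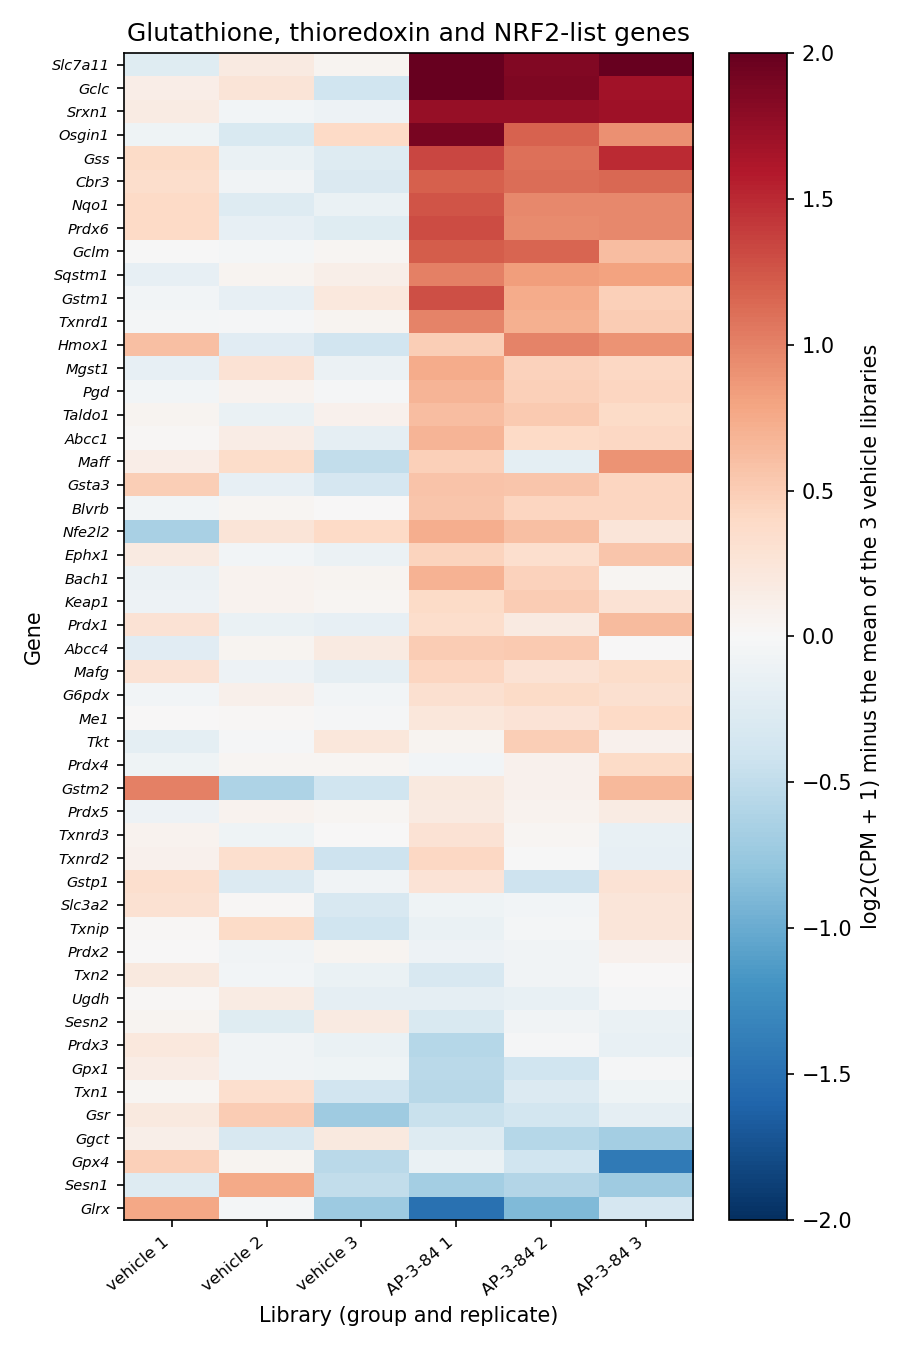
Level of 50 genes of the glutathione, thioredoxin and NRF2 lists in each of the 6 libraries, as log2(CPM + 1) minus the mean of the 3 vehicle libraries, with colors ending at 2 on either side and genes ordered by their fitted log2 fold change. Slc7a11, Gclc and Srxn1 are the top rows and are high in all 3 treated libraries, while most thioredoxins and peroxiredoxins lie near 0.

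Nampt, which encodes the rate-limiting enzyme of NAD salvage from nicotinamide, was at 80.5, 102 and 110.4 CPM with vehicle and 260.3, 196 and 179 CPM with AP-3-84. The groups did not overlap (log2 fold change 1.12, SE 0.190, adjusted p = 0.00642). Ednrb, the endothelin receptor type B gene, ranged widely, from 4.26, 8.84 and 18.4 CPM with vehicle to 72.0, 47.97 and 33.3 CPM with AP-3-84. Its log2 fold change was 2.29 (SE 0.447, adjusted p = 0.0200), and it was not called in the fit of the 6 libraries alone (adjusted p = 0.186, within 7.63e-15 to 0.243 over the alternatives). Ptgir, the prostacyclin receptor gene, rose from 13.7, 15.8 and 11.8 CPM to 27.0, 33.0 and 30.1 CPM (log2 fold change 1.12, adjusted p = 0.0169). Lrp8, which encodes the apolipoprotein E receptor ApoER2, rose from 10.8, 9.32 and 5.37 CPM to 22.8, 29.4 and 27.0 CPM (log2 fold change 1.63, adjusted p = 0.0228). Panx1, the gene of an ATP-releasing membrane channel, rose from 39.3, 29.2 and 31.4 CPM to 109.5, 97.5 and 76.3 CPM (log2 fold change 1.50, adjusted p = 0.0333). Treated and vehicle libraries were separate in each of these genes, against 9.08% of all genes with all treated libraries above. The genes were picked by a test that used these libraries.

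Ext1 encodes a polymerase of heparan sulfate chains and was at 15.7, 15.3 and 15.1 CPM with vehicle, a tight vehicle group. With AP-3-84 it reached 67.3, 55.8 and 41.9 CPM (log2 fold change 1.84, SE 0.338, adjusted p = 0.0104). Chpf2, which takes part in chondroitin chain elongation, rose from 50.7, 39.0 and 42.7 CPM to 75.8, 84.7 and 65.4 CPM (log2 fold change 0.77, adjusted p = 0.0169), and it was not called in the fit of the 6 libraries alone (adjusted p = 0.0510). The remaining called genes have varied roles: the homeobox factor gene Hlx (log2 fold change 1.01), the kinase-like gene Rps6kc1 (1.64), the scaffold gene Tanc2 (1.67), the ubiquitin ligase complex member Ypel5 (0.72), the tubulin cofactor-like gene Tbcel (0.92) and Ttc39c (1.41). In none of these 6 did the groups overlap, but they were picked by a test that used these libraries. Their adjusted p ranged from 0.0104 for Ttc39c and Hlx to 0.0467 for Tbcel.

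Further genes were called in the fit of the 6 libraries but not across 36 and were picked out after their values were seen. Klf9, a zinc-finger factor gene induced by glucocorticoids and oxidants, stood at 17.0, 17.7 and 16.6 CPM with vehicle and 58.8, 61.3 and 53.8 CPM with AP-3-84. Both groups were tight for Klf9 in these cells, and its log2 fold change of 1.76 had an adjusted p of 0.000197 in that fit and of 0.214 across 36 libraries, within 1.05e-12 to 0.868 over the alternatives. Slc6a9, a glycine transporter gene, stood at 1.79, 2.15 and 0.511 CPM against 15.0, 8.39 and 6.82 CPM. Cebpa, a factor of myeloid differentiation, stood at 63.5, 44.2 and 49.3 CPM against 124, 111 and 85.4 CPM. For each of these genes all treated libraries were above all vehicle libraries, against 9.08% of all genes. That separation is not further evidence, since the genes were picked from a fit of these libraries.

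Genes of the other stress programs showed no call. Of 23 tested genes of the integrated stress response, none was called by edgeR in either fit or by DESeq2, 3 were higher and none lower at an unadjusted p below 0.05, and the list median was 0.16 (0.0059 to 0.18 over the 14 alternatives). In 5 of the 23 genes all treated libraries lay above all vehicle libraries and in none below, against 9.08% and 7.62% of all genes. Atf3 gave 75.6, 66.2 and 70.0 CPM with vehicle and 109, 91.2 and 100.0 CPM with AP-3-84, without overlap (log2 fold change 0.50, adjusted p = 0.436). The ATF4 targets Chac1 and Trib3 had log2 fold changes of -0.58 and 0.55 with overlapping groups, and Ddit3, which encodes CHOP, had 14.6, 16.2 and 12.8 CPM against 16.3, 12.1 and 13.9 CPM. Gdf15, a stress-induced cytokine gene, overlapped between groups, with 74.0, 42.3 and 39.4 CPM against 34.3, 41.7 and 45.2 CPM. The 23 tested genes of the unfolded protein response had a median of -0.08 and the 32 proteasome subunits one of -0.19, with no call by edgeR or DESeq2. At an unadjusted p below 0.05, 1 gene of the unfolded protein response was higher and 2 lower, and 2 proteasome genes were lower. The lowest p among the proteasome subunits was that of Psmd6 (log2 fold change -0.51, adjusted p = 0.215). The metallothionein genes Mt1 and Mt2, which respond to zinc, had log2 fold changes of -0.04 and -0.80 with overlapping groups.

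Among 23 tested p53 targets none was called by edgeR or DESeq2, 2 were lower and none higher at an unadjusted p below 0.05, and the list median was -0.30 (-0.40 to -0.14 over the 14 alternatives). Cdkn1a, the cell cycle inhibitor gene that p53 drives, stood at 1114, 865 and 803 CPM with vehicle and 555, 696 and 866 CPM with AP-3-84, so the groups overlapped. Mdm2, which encodes the ubiquitin ligase of p53, stood at 286, 172 and 191 CPM against 146, 155 and 221 CPM, also with overlap. Vehicle replicate 1 was the highest library for both genes. The 3 members with the lowest p were Tnfrsf10b, Sesn1 and Fas. Their log2 fold changes were -1.32, -0.79 and 0.70, with adjusted p of 0.377, 0.506 and 0.533. All treated libraries lay below all vehicle libraries for Tnfrsf10b and Sesn1 and above for Fas. In the whole list 3 genes lay below and 3 above in this way, against 7.62% and 9.08% of all genes.

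The immediate early and AP-1 list had 23 tested genes, none of them called by edgeR across 36 libraries, and a median of 0.40 (0.25 to 0.47 over the 14 alternatives). At an unadjusted p below 0.05, 6 were higher and none lower, and DESeq2 called 1 higher, Fosl2. In 7 of its 23 genes all treated libraries lay above all vehicle libraries and in 1 below, against 9.08% and 7.62% of all genes. Fosl2, an AP-1 subunit gene, gave 45.8, 44.4 and 48.6 CPM against 106, 80.5 and 75.8 CPM (log2 fold change 0.92, adjusted p = 0.0887), and it was called in the fit of the 6 libraries. Egr1, a growth factor-induced zinc-finger gene, gave 1.57, 4.06 and 5.11 CPM against 11.5, 14.4 and 6.06 CPM. In the lysosome and autophagy list 1 of 34 tested genes was called, Sqstm1, against 0.144% of all genes. All treated libraries lay above all vehicle libraries in 9 of the 34 and below in 3, against 9.08% and 7.62% of all genes. At an unadjusted p below 0.05 across 36 libraries, 8 were higher and 1 lower. The fit of the 6 libraries called Gabarapl1 and Sqstm1 higher and Ctsk lower. Gabarapl1, whose product tags autophagosome membranes, gave 59.9, 51.1 and 81.3 CPM against 139.5, 124 and 105 CPM (adjusted p = 0.166 across 36 libraries).

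**Figure D3:**
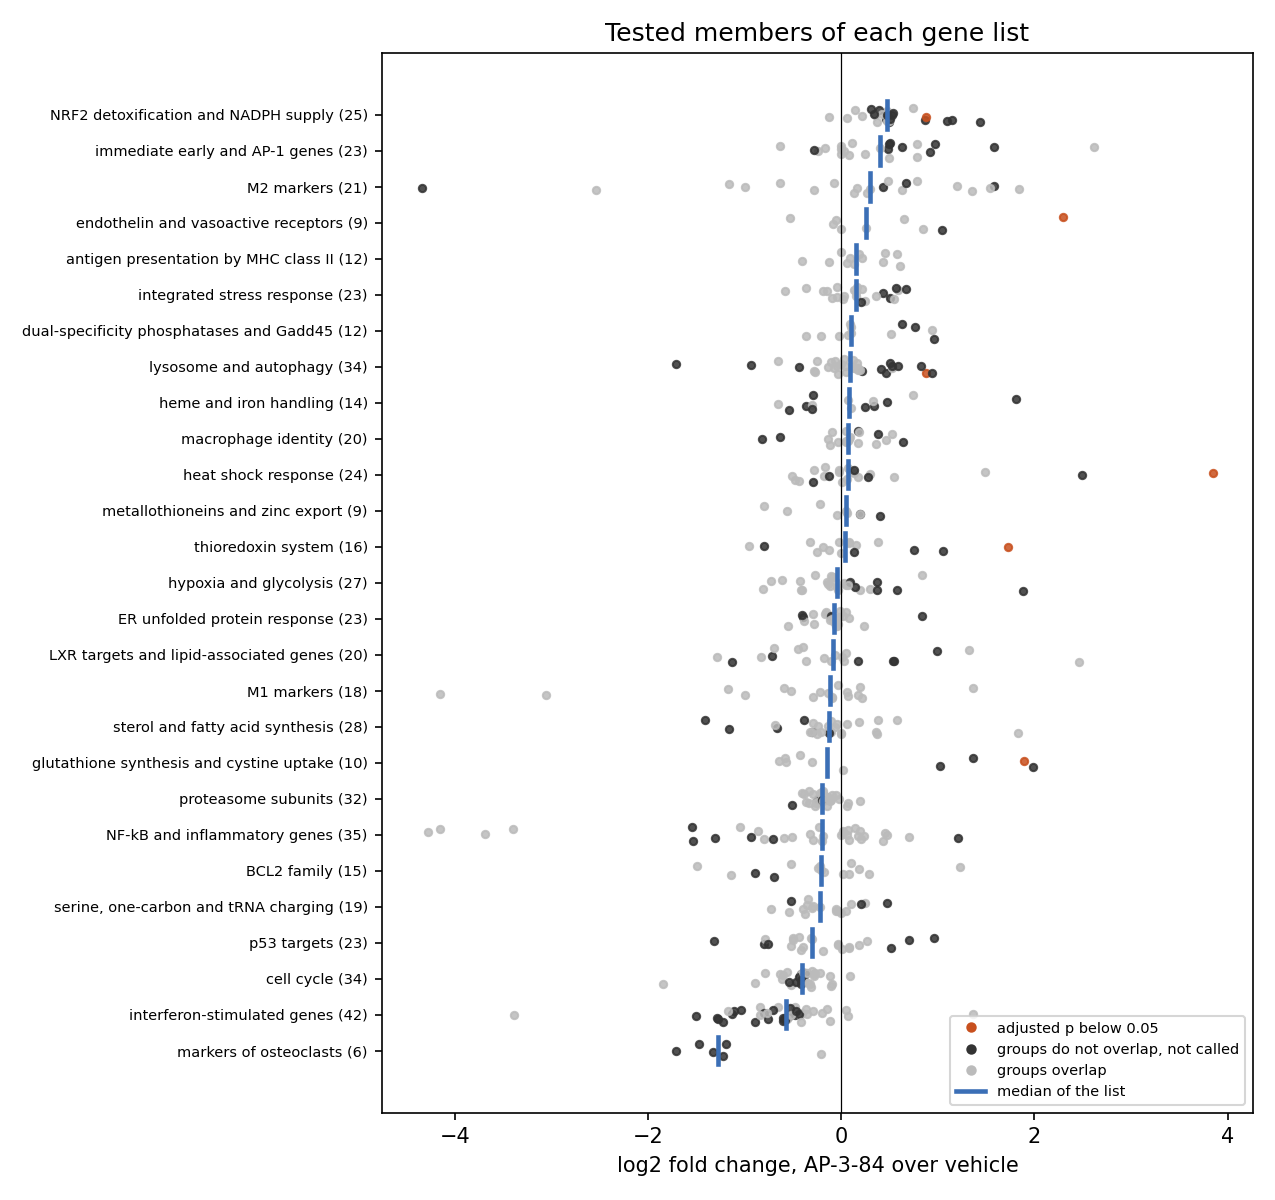
Log2 fold change of AP-3-84 over vehicle for each tested member of the gene lists with at least 6 tested members, other cell type markers apart from those of osteoclasts left out, with the number of tested members in parentheses and the list median as a bar. The median is 0.47 for the NRF2 list, -0.57 for the interferon list and -1.28 for the osteoclast markers.

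None of the 42 tested genes stimulated by interferon was called by edgeR across 36 libraries or by DESeq2, with 4 lower and none higher at an unadjusted p below 0.05. In 20 of the 42 tested genes all treated libraries lay below all vehicle libraries and in none above, against 7.62% and 9.08% of all genes. The list median was -0.57, and it lay between -0.66 and -0.44 over the 14 alternatives. The summed level was 1111 to 1524 CPM with vehicle and 796 to 957 CPM with AP-3-84. Ifit1, an antiviral RNA-binding protein gene, gave 56.5, 64.8 and 38.8 CPM against 26.0, 22.5 and 29.5 CPM, and Ifit3, which encodes its partner, gave 42.0, 43.7 and 28.9 CPM against 21.0003, 12.3 and 18.9 CPM. Ifit1 and Ifit3 were the 2 members called lower in the fit of the 6 libraries, and they were picked out after their values were seen. The members with the lowest p across 36 libraries were Xaf1, Ifit2 and Ifit3b, with log2 fold changes of -0.89, -1.51 and -1.23 and adjusted p of 0.453, 0.503 and 0.505.

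Osteoclast markers were examined because M-CSF cultures of bone marrow can hold them at a low level. In 5 of the 6 markers all treated libraries lay below all vehicle libraries, against 7.62% of all genes, and the list median was -1.28 (-1.66 to -0.97 over the 14 alternatives). None was called across 36 libraries or by DESeq2, and 1 was lower at an unadjusted p below 0.05. The 6 summed to 260, 130.2 and 163 CPM with vehicle and to 67.5, 96.2 and 98.5 CPM with AP-3-84. Acp5, the tartrate-resistant acid phosphatase gene, stood at 135, 49.5 and 76.7 CPM against 14.8, 35.4 and 43.9 CPM. Ctsk, the bone-resorbing cathepsin K gene, stood at 20.6, 11.0 and 15.8 CPM against 3.75, 3.15 and 7.58 CPM. Ctsk was called lower in the fit of the 6 libraries alone, as was Tnfrsf11a, which is outside that list and was picked out after its values were seen. Tnfrsf11a, the gene of the RANK receptor that starts osteoclast differentiation, stood at 103, 93.9 and 96.1 CPM against 48.001, 59.5 and 55.3 CPM. In bulk RNA fewer cells of a type and less RNA per cell cannot be told apart.

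Cell cycle genes had a list median of -0.40 over 34 tested members (-0.54 to -0.21 over the 14 alternatives). None was called by edgeR in either fit or by DESeq2, and 2 members were lower at an unadjusted p below 0.05. In 8 of the 34 all treated libraries lay below all vehicle libraries and in none above, against 7.62% and 9.08% of all genes. The summed level of the list was 5245, 4075 and 4060 CPM with vehicle and 2326, 3227 and 3890 CPM with AP-3-84. Ccnd1, the cyclin D1 gene, was led by vehicle replicate 1, with 1392, 338 and 205 CPM against 67.5, 168 and 302 CPM, and its groups overlapped. The same library led the chemokine genes Ccl2 (656, 93.2 and 50.6 CPM against 3.25, 11.8 and 60.6 CPM) and Ccl7 (579.7, 57.1 and 26.6 CPM against 0.250, 5.50 and 28.3 CPM). For Ccl2 and Ccl7 the log2 fold changes of -3.40 and -4.28 rested on that library and had adjusted p of 0.286 and 0.241. The NF-kB and inflammatory list of 35 tested genes had no call by edgeR and a median of -0.19, and DESeq2 called Ccl7 lower. At an unadjusted p below 0.05, 3 genes were higher and 7 lower. All treated libraries lay above all vehicle libraries in 1 of the 35 and below in 5, against 9.08% and 7.62% of all genes. The 1 above was Nfkbie, the member with the lowest p (log2 fold change 1.21, adjusted p = 0.227). The polarization markers Arg1 and Il1b overlapped between groups, and Nos2 was at 0 in all libraries but vehicle replicate 3. None of the tested members of the M1, M2, macrophage identity, MHC class II, sterol synthesis, LXR, hypoxia and BCL2 family lists was called across 36 libraries or by DESeq2, 0 to 2 members of each list were higher and 0 to 2 lower at an unadjusted p below 0.05, and the list medians lay between -0.21 for the BCL2 family and 0.30 for the M2 markers.

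**Figure D4:**
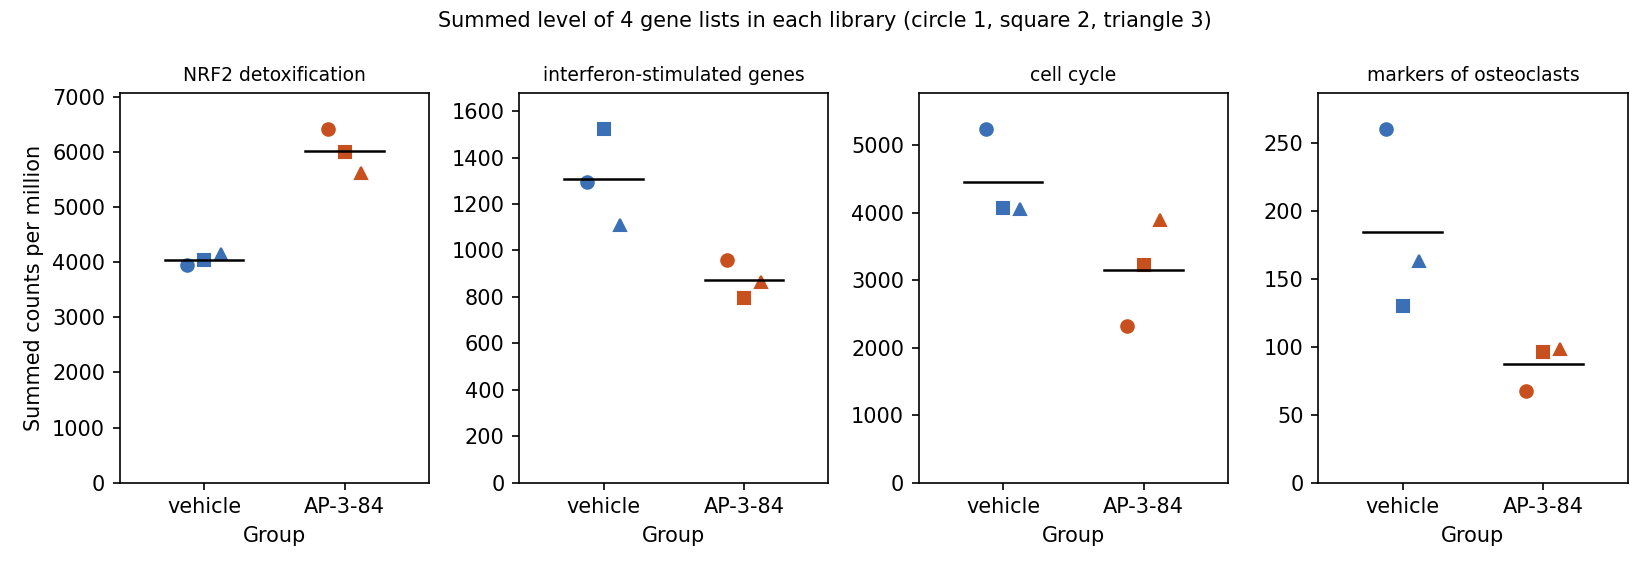
Summed CPM of 4 gene lists in each library (points) with the group mean (line), on axes that start at 0. The NRF2 list lies at 5617 to 6423 CPM with AP-3-84 and at most 4149 CPM with vehicle. The interferon, cell cycle and osteoclast lists lie lower with AP-3-84 and do not overlap with vehicle. For the cell cycle list the gap is narrow, from 3890 CPM with AP-3-84 to 4060 CPM with vehicle. Of the 34 lists, others not drawn also did not overlap. Among them, M2 markers reached 757 CPM with vehicle and at least 865 CPM with AP-3-84. The NF-kB list had at least 3839 CPM with vehicle and at most 3690 CPM with AP-3-84.

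Toward lower levels, the leading 6 genes by p at an average log2 CPM of at least 3 all missed the threshold across 36 libraries, while DESeq2 and edgeR on all 48 libraries called each of them lower. They were Ccnh and Gtf2h1, which encode subunits of the general transcription factor TFIIH, the ribosome assembly gene Rpf2, the mitochondrial import gene Timm22, the torsin gene Tor3a and Dennd4a, which encodes a Rab exchange factor. Their log2 fold changes were between -1.20 for Dennd4a and -0.75 for Tor3a, with adjusted p between 0.0765 and 0.0808. All treated libraries lay below all vehicle libraries in each of the 6, against 7.62% of all genes. The 6 were picked by a test that used these libraries, so this separation is not further evidence. Tor3a was at 101, 95.3 and 88.4 CPM with vehicle and 56.0, 52.4 and 60.9 CPM with AP-3-84. Gtf2h1 was at 54.5, 50.9 and 35.5 CPM against 21.8, 21.8 and 27.8 CPM, and Gtf2h1 and Tor3a were called in the fit of the 6 libraries. The macrophage factor gene Maf was also lower in that fit, at 977, 1066 and 952 CPM against 626, 706 and 603 CPM.

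Whether the response differed in other macrophages was tested as the difference between responses. The genotype field of the labels calls the knockout libraries wild-type as well, so they were taken as knockout from their titles, descriptions and the series design. The response of p53 knockout M0 cells differed from that of wild-type M0 cells in 2002 genes (17%), and 5 of the 17 called genes were among them. Trp53 itself averaged 11.1 ± 2.04 CPM (SD, n = 3) in wild-type and 4.34 ± 1.87 CPM in knockout vehicle libraries, and since the site of the deletion is not given here, a 3′ measurement does not check the genotype. Hlx, higher with AP-3-84 in wild-type cells, fell in knockout cells, by 0.95 on the log2 scale (adjusted p = 0.000508), and the difference of the responses was -1.97 (SE 0.269, adjusted p = 1.18e-05). Gclc had a log2 fold change of 0.41 in knockout cells, with a difference of -1.48 (adjusted p = 0.0217). Nampt, Tanc2 and Tbcel had log2 fold changes of 0.26, -0.04 and -0.16 there. Since the 17 were picked for a rise in wild-type cells, their wild-type values are prone to be high in any such comparison. Knockout M0 cells had 2440 genes called for AP-3-84 (20.7%), with Hspa1a (4.61), Srxn1 (0.93) and Ptgir (0.71) higher among the 17. The difference was tested but not called for the other 12 genes.

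Between wild-type M1 and M0 cells the response differed in 3 genes (0.0255%) and between wild-type M2 and M0 cells in 16 (0.136%), none of them among the 17. M1 cells had 2 genes called for AP-3-84 (0.017%) and M2 cells 142 (1.21%). Hspa1a was called in M2 cells, from 5.83 ± 0.735 CPM with vehicle to 139 ± 73.2 CPM with AP-3-84 (SD, n = 3; log2 fold change 4.56), and it was not called in M1 cells (log2 fold change 2.15, adjusted p = 0.232). Fitted log2 fold changes were above 0 for 16 of the 17 in M1 cells, for 16 in M2 cells and for 14 in knockout M0 cells. The medians over all genes tested were 0.013, 0.00099 and -0.029 in these populations. Whether the 17 share a direction across populations beyond other genes was not tested. Gdf15 was the gene with the lowest p in the M1 comparison. It went from 13.0 ± 1.76 to 71.7 ± 22.3 CPM in M1 cells and from 51.9 ± 19.2 to 40.4 ± 5.59 CPM in M0 cells (SD, n = 3), a difference of 2.82 on the log2 scale (adjusted p = 0.00306).

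**Figure D5:**
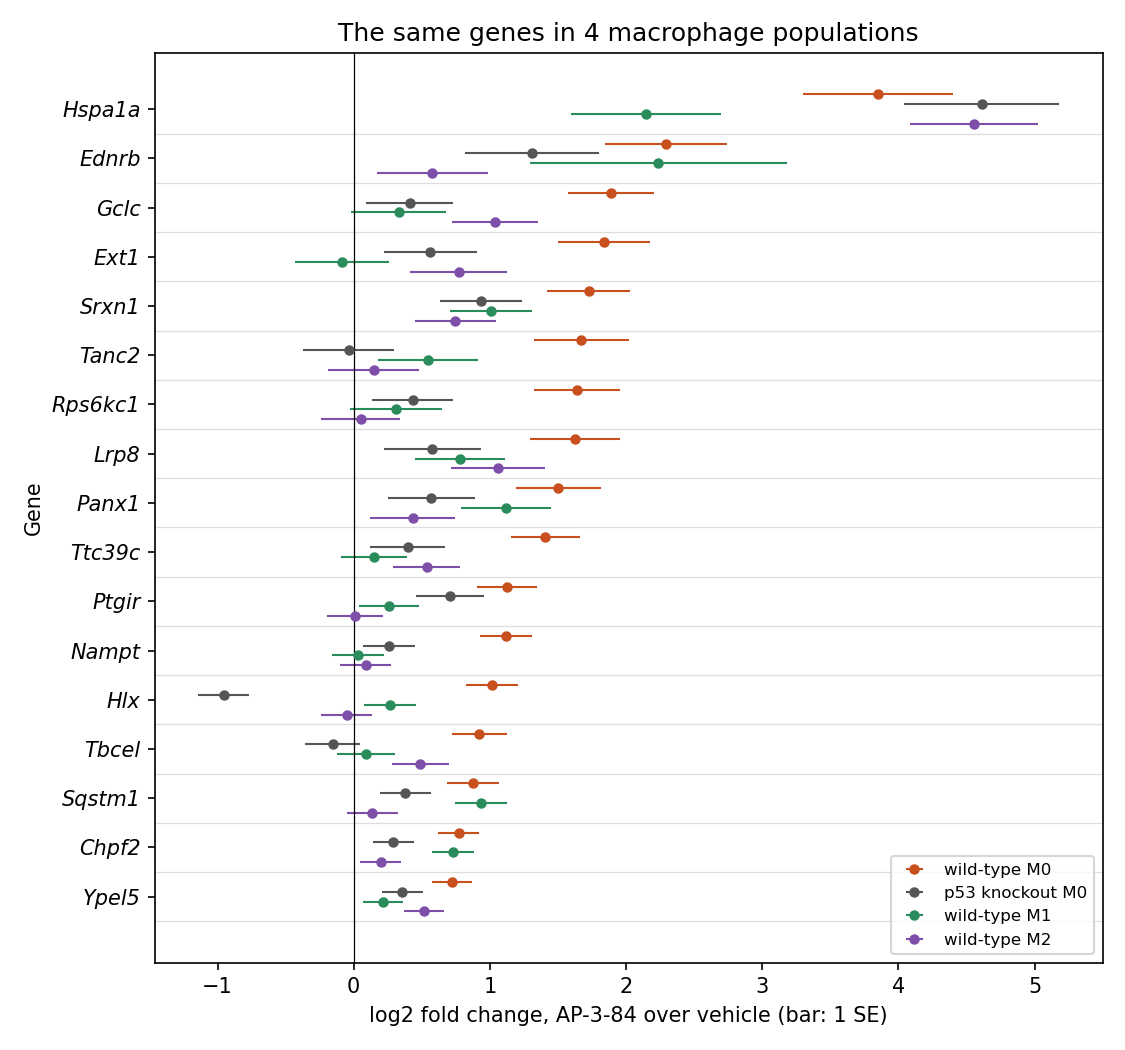
Fitted log2 fold change of AP-3-84 over vehicle, with a bar of 1 SE, for the 17 genes in wild-type M0, p53 knockout M0, wild-type M1 and wild-type M2 macrophages. Hspa1a runs from 2.15 in M1 cells, where it was not called, to 4.61 in knockout M0 cells, and Hlx is below 0 in knockout M0 cells (-0.95).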

How the data were processed

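The authors deposited a table of raw counts per gene for all 48 libraries, which were made with the QuantSeq FWD 3′ kit from 100 ng of total RNA and sequenced as single 75-base reads, per the labels' protocols. The submitters' processing notes name Bowtie2, RSEM and DESeq2, with no versions, so the deposited counts may be rounded estimates. Neither the build nor the annotation is named in the sources used here, and unique molecular identifiers are not mentioned either. Of 51789 gene IDs, 51596 were matched to symbols. Coordinates in the text come from RefSeq promoter windows of GRCm38.p6.

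Counts from the 36 bone marrow macrophage libraries (12 groups) were filtered with filterByExpr, scaled by TMM and fitted with edgeR 4.0.16 in R 4.3.3 (robust quasi-likelihood, no replicate block). Adjusted p is Benjamini-Hochberg over 11779 genes. CPM values use the TMM-scaled library sizes. The fit was also run on simulated counts with known changes, and the outcome is not given here. Alternatives were other scalings, no filter, DESeq2 1.42.0, other sets of libraries, a replicate block and each library left out.

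A rule picked genes to name: all called genes, the 6 lowest-p falls and the 3 lowest-p members of each list. It also took the 3 lowest-p differences between responses and a fixed list of stress and polarization genes. Not all of these are named, since some lowest-p list members and some genes of the fixed list were left out. Genes outside the rule are marked as picked afterwards, apart from genes that serve only as checks (Lyz2, Pf4, Trp53). The members and gene lists were chosen with earlier results of these data known. Depth limits genes with few reads, such as Hspa1a with vehicle.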

Additional observations from a re-analysis of the deposited data

Results flagged for a closer look

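Some responses to AP-3-84 in wild-type M0 cells differed from those in another population by edgeR's test of the difference itself, each with an adjusted p below 0.05. Against p53 knockout M0 cells the log2 response was lower in knockout cells by this test for 5 of the called genes, with differences of -0.86 for Nampt, -1.48 for Gclc, -1.97 for Hlx, -1.71 for Tanc2 and -1.08 for Tbcel. The genes with the lowest p in that comparison went the other way, with 7.58 for Cd300e, 8.91 for Zfp811 and 7.16 for Slamf9. Cd300e averaged 28.5 ± 4.26 CPM with vehicle and 14.9 ± 5.97 CPM with AP-3-84 in wild-type cells, and 0.645 ± 0.390 and 68.6 ± 38.5 CPM in knockout cells (SD, n = 3). Against wild-type M1 cells the difference was 2.82 for Gdf15, 5.38 for Olfr1369-ps1, which has few reads, and 2.89 for Tmem26. Against wild-type M2 cells it was -2.77 for Gpr132, -1.65 for Ptafr and -1.48 for Ralgds. Gpr132, a receptor gene, went from 6.62 ± 2.24 to 15.9 ± 3.06 CPM in M0 cells and from 32.9 ± 7.55 to 11.6 ± 3.08 CPM in M2 cells (SD, n = 3).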

How the results depend on the processing

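The 17 calls in wild-type M0 cells became 311 with no filter on low counts, 50 with DESeq2, 68 with only the 6 libraries, 70 with only the 18 wild-type libraries and 55 with all 48 libraries, and 0 to 17 when 1 of the 6 libraries was left out. They were 17 with median-ratio size factors and 14 with library totals. The 68 calls of the 6-library fit ranged from 17 to 176 with 1 library left out. These last settings were chosen after seeing the data. With the replicate number as a block the counts were 8 across 36 libraries and 18 in the 6-library fit, but same-numbered libraries of the wild-type M0 groups did not deviate together (correlations -0.25, -0.00 and -0.28). In wild-type M2 cells the correlations were 0.20, -0.07 and 0.22, and in no population were all 3 above 0.1, so the numbers were not taken to pair the samples. Differences of responses: against knockout M0 cells 2002 genes became 1013 (without knockout treated replicate 2) to 3121 (without knockout treated replicate 3) with 1 library left out, 1221 without wild-type treated replicate 1, and 1697 with the block. Against M1 cells 3 genes became 172 with no filter, 9 with DESeq2, 1 with the block and 1 to 4 with 1 library left out. Against M2 cells 16 became 6 with library totals, 452 with no filter, 117 with DESeq2, 5 with only the libraries compared, 41 with the 18 wild-type libraries, 103 with all 48, 0 with the block and 0 to 43 with 1 library left out. The cause was not tested. All 17 called genes stayed higher in all 14 alternatives, and each lost its call in 1 (Hspa1a) to 8 of them, each of them without vehicle replicate 1. Signs turned with 1 library left out for Mt1 (-0.19 to 0.24, and 0.0017 with the block), Il1b (-0.34 to 0.65), Arg1 (-0.88 to 0.19) and Ddit3 (-0.16 to 0.050), none of them called.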
